A study of Mus musculus with 6 samples.

Results

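The nuclear-encoded subunits of the mitochondrial respiratory chain and of ATP synthase were followed in MOC2 cells, a mouse oral squamous cell carcinoma line labelled HPV negative, by bulk RNA sequencing of polyA RNA. Members were chosen by gene symbol: Nduf genes of complex I, Sdh genes of complex II, Uqcr genes of complex III, the numbered Cox subunit genes of complex IV and Atp5 genes of complex V, without symbols that mark pseudogenes and with at least 10 counts summed over the 6 libraries. Of 55418 gene symbols in the table, 87 matched and 82 were members: 39 in complex I, 4 in complex II, 8 in complex III, 14 in complex IV and 17 in complex V. The member closest to the minimum was Ndufa11b with 13 counts in all, and the 5 symbols under it had 0 counts. The 3 EphA4 knockout libraries, from the cell line named as the H3 clone, were compared with 3 control CRISPR libraries of the same line. Both groups were untreated, carried the same batch label and were thawed and passaged 2 times before harvest. The knockout group is therefore 1 clone. Whether samples 1 to 3 of a group were grown separately is not in the labels, and the p-values therefore cover sample-to-sample spread that could be technical. EphA4 is a receptor tyrosine kinase that binds ephrins on neighbouring cells, and the study's title places it upstream of AKT.

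Epha4 transcript went against the label. It had 97.4, 103 and 98.1 normalised counts (CPM, counts scaled to a common library size) in the libraries labelled EphA4 knockout, against 51.4, 59.8 and 54.0 CPM in control libraries. The groups did not overlap, and the log2 fold change was 0.86 (SE 0.06; adjusted p = 2.1e-06, edgeR quasi-likelihood test). Counts per gene cannot tell an intact transcript from an edited one. Every direction given here is for the libraries labelled EphA4 knockout.

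Oxidative phosphorylation passes electrons from NADH through complex I, and from succinate through complex II, to ubiquinone, then through complex III and cytochrome c to complex IV, which reduces oxygen. Complexes I, III and IV pump protons across the inner mitochondrial membrane, and complex V, the ATP synthase, lets them flow back through a rotating ring to make ATP. Most subunits are encoded in the nucleus and imported, and the mitochondrial genome encodes a small set of membrane subunits in all of these complexes except complex II. Nuclear respiratory factor 1, the ETS-family factor GABP, the estrogen-related receptors and the PGC-1 coactivators are known activators of these nuclear genes.

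Library totals were between 35115926 and 41775031 counts. Epithelial transcripts were high in both groups: Krt8 averaged 1637 ± 22.8 and 1340 ± 41.7 CPM, and Epcam 627 ± 15.9 and 954 ± 30.6 CPM, in EphA4 knockout and control libraries (SD, n = 3 each). Of 6 tested squamous carcinoma markers, 2 were lower and 4 higher. The basal squamous markers Krt5 and Trp63 were at or near 0 in both groups. Fibroblast markers summed to between 1.93 and 2.03 CPM in EphA4 knockout libraries, against 48.0 to 51.4 CPM in control libraries. All 5 of 5 tested markers were lower, with Lum at 0 counts and Dcn at 0 in each EphA4 knockout library. Col1a2, which did not pass the filter, went the other way. It had 8, 11 and 10 counts in EphA4 knockout libraries, against 4, 0 and 1 counts in control libraries. Leukocyte markers summed to between 4.42 and 4.95 CPM in EphA4 knockout libraries, against 17.6 to 19.8 CPM in control libraries. Most of this was Cd68, and Adgre1 and Cd3e were at 0. Ptprc, which did not pass the filter, had 18, 16 and 7 counts in EphA4 knockout libraries, against 3, 1 and 10 counts in control libraries. In the edgeR fit without EphA4 knockout replicate 3, Ptprc was tested and called higher (log2 fold change 1.99, adjusted p = 0.024). Endothelial markers summed to between 0.587 and 1.06 CPM in EphA4 knockout libraries, against 1.10 to 1.46 CPM in control libraries, with Emcn at 0. Striated muscle markers summed to between 0.224 and 1.93 CPM in EphA4 knockout libraries, against 3.37 to 4.59 CPM in control libraries, with Myh4 at 0. Most of the control sum was Tnni3, with 4, 4 and 6 counts in EphA4 knockout libraries, against 154, 102 and 122 counts in control libraries. The sum of 1.93 CPM was mostly Acta1, at 1.77 CPM in EphA4 knockout replicate 3. The part of these marker differences in the results below was not tested, and in bulk RNA fewer cells of a type and less RNA per cell cannot be told apart. EphA4 knockout replicate 3 stood apart: processed pseudogenes took 1.49% of its counts, against 0.285% and 0.290% in the other EphA4 knockout libraries and 0.329% to 0.345% in control libraries. Calls of subunit genes that change without it are given both ways, as are some values that move. For the other pathway lists, counts of calls without it are given, with only some of the single genes.

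Most subunit transcripts were lower in EphA4 knockout libraries. Of 82 members, 76 passed the filter on low counts, and the lowest of these, Ndufb2, still had 993 counts over the 6 libraries. Of the 76, 56 were lower (73.7%), 5 were higher (6.58%) and 15 were not called at an adjusted p of 0.05. Across all 15199 genes tested, 38.8% were lower and 32.7% were higher, so the background of calls in this comparison is high, and the share of lower members was above it. The median log2 fold change of the 76 members was -0.37, or 77.4% of control, with quartiles of -0.58 and -0.19, beside a median of -0.04 over all tested genes. Changes were small: 24 of the 76 were below -0.5 and 3 were below -1. The ranges of the 3 libraries did not overlap, with EphA4 knockout lower, for 55 members, beside 41.4% of all tested genes, and with EphA4 knockout higher for 5, beside 34.6% of all tested genes. Without EphA4 knockout replicate 3, 54 members were lower and 7 higher, beside 38.2% and 33.7% of all tested genes. Cox7c and Uqcrc2 lost their call, Atp5f1 and Ndufa5 were called higher, and the members' median was -0.28.

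**Figure D1:**
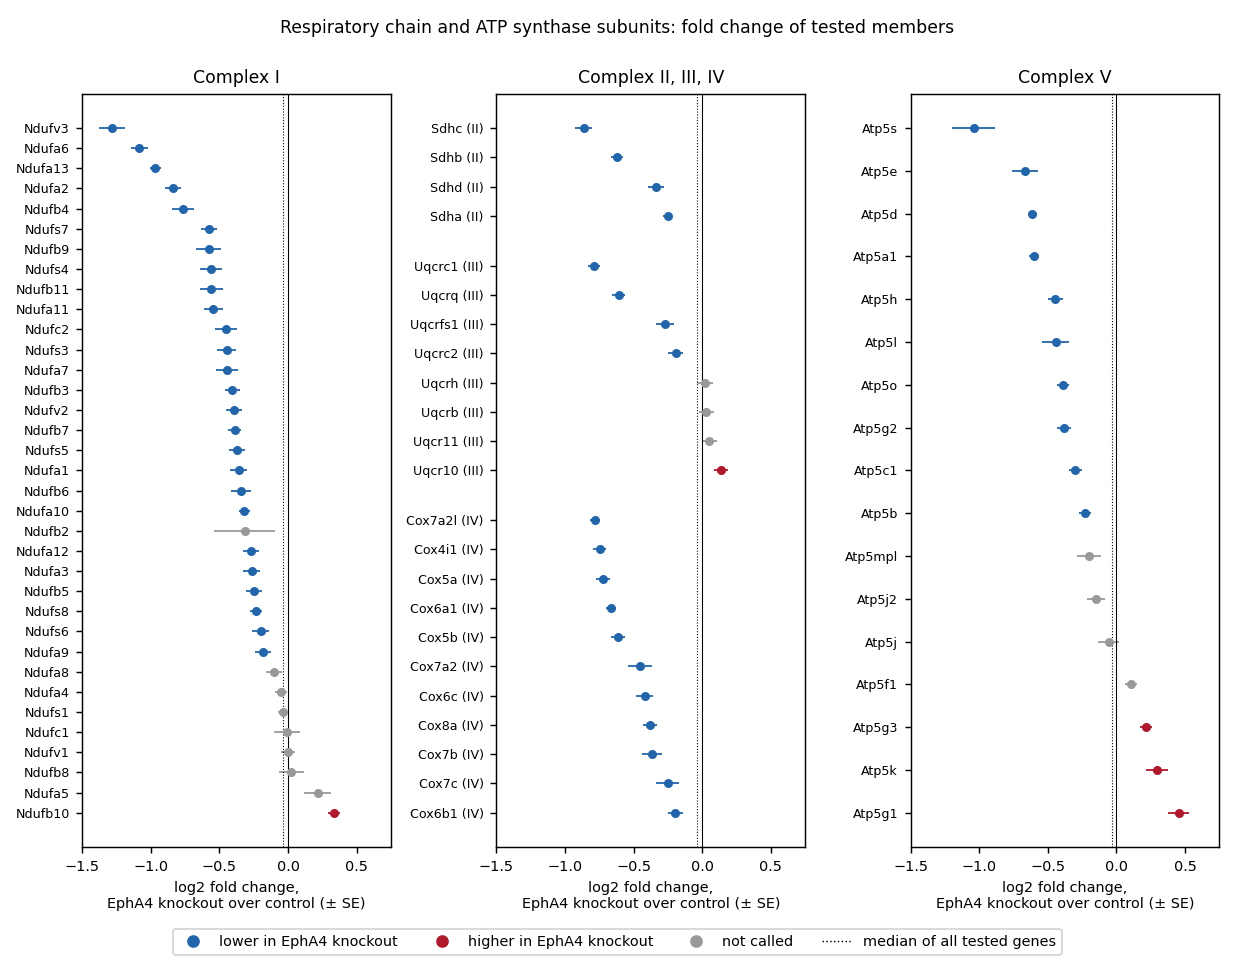
Log2 fold change of tested subunit genes, EphA4 knockout over control, by complex, with bars of 1 SE from the edgeR fit; blue is lower, red higher and grey not called, and the dotted line is the median of all tested genes. Every plotted gene of complexes II and IV lies below 0, and complexes I, III and V hold both lower genes and genes at or above 0, from Ndufv3 at -1.28 to Atp5g1 at 0.45.

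The complexes were not lowered alike. All 4 tested genes of complex II and all 11 of complex IV were lower, with medians of -0.48 and -0.45. In complex I, 27 of 36 were lower and 1 was higher, with a median of -0.37. In complex V, 10 of 17 were lower and 3 higher, with a median of -0.30. Complex III was split, with 4 of 8 lower, 1 higher and a median of -0.09. These differences between complexes were not tested.

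**Figure D2:**
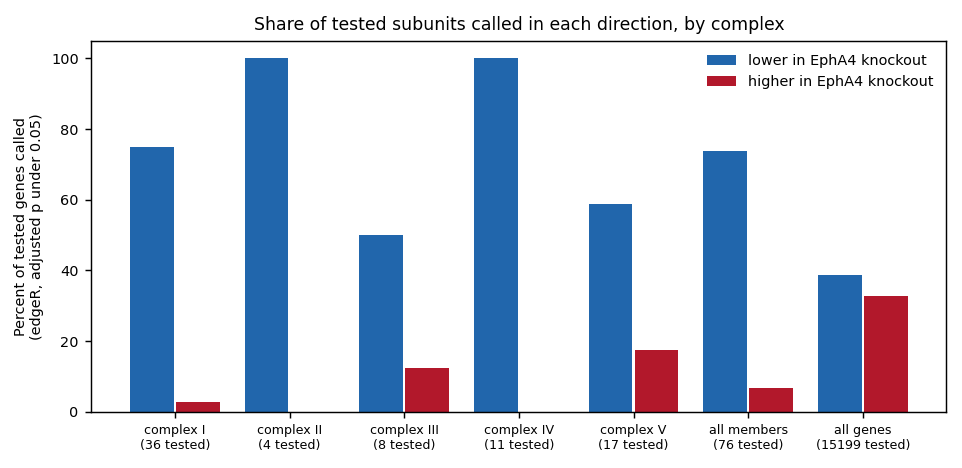
Percent of tested genes called lower (blue) and higher (red) in EphA4 knockout libraries, for each complex, for the 76 tested members and for all 15199 tested genes. Lower calls make up 27 of 36 genes in complex I and every tested gene of complexes II and IV, beside 38.8% of all genes.

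Summed over its members, complex IV had 1273.5, 1203.4 and 1207.7 CPM in EphA4 knockout libraries, against 1839.7, 1729.3 and 1879.1 CPM in control libraries, or 67.6% of control. Complex II summed to 73.6% of control, complex I to 76.6%, complex III to 79.2% and complex V to 81.7%, and in none of the 5 did the groups overlap. On a scale corrected for transcript length (TPM, a length-scaled share of the library), the same sums were 74.5% for complex IV, 79.0% for complex II, 84.2% for complex I, 92.5% for complex III and 92.1% for complex V. The TPM scale raised the median log2 ratio of all tested genes by 0.12, and the median log2 ratio of the 76 members was -0.25 on it. By library, the members' median log2 deviation from the control mean was -0.32, -0.33 and -0.39 in the EphA4 knockout libraries and -0.01, -0.05 and 0.06 in the control libraries. The shift was thus present in each EphA4 knockout library.

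Complex I takes electrons from NADH at a flavin in its peripheral arm and hands them down a chain of iron-sulfur clusters to ubiquinone. Of the 7 nuclear-encoded core genes, 5 were lower. Among them, Ndufs7, Ndufs3 and Ndufs8, which belong to the ubiquinone-facing module, had log2 fold changes of -0.58, -0.45 and -0.23, and Ndufv2, an iron-sulfur subunit next to the flavin, stood at -0.39. Ndufs8 stood at -0.15 without control replicate 3, still called. The NADH-binding flavoprotein gene Ndufv1 had 141, 136 and 136 CPM in EphA4 knockout libraries, against 148, 133 and 131 CPM in control libraries. Ndufs1, the largest iron-sulfur subunit, had 88.7, 85.8 and 91.0 CPM in EphA4 knockout libraries, against 89.5, 92.5 and 90.1 CPM in control libraries. Neither of these genes was called, with adjusted p of 0.98 and 0.45, and their groups overlapped. Ndufv1 was called higher in 3 of the 19 alternative settings, among them the fit without control replicate 1 (log2 fold change 0.11, adjusted p = 0.035).

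Accessory subunits surround that core and are needed for its assembly and stability. Of 28 tested accessory genes, 22 were lower, 1 was higher and 5 were not called. Ndufv3, a small subunit beside the NADH-oxidising site, had 29.1, 26.8 and 22.7 CPM in EphA4 knockout libraries, against 58.8, 68.1 and 64.4 CPM in control libraries (log2 fold change -1.28, SE 0.09, adjusted p = 2.9e-06). Ndufa6, which docks the mitochondrial acyl carrier protein onto the peripheral arm, had 27.6, 28.4 and 31.2 CPM in EphA4 knockout libraries, against 58.8, 62.8 and 63.4 CPM in control libraries (log2 fold change -1.08, SE 0.06, adjusted p = 6.9e-07). They stood at 41.1% and 47.2% of control, with no overlap between groups. Ndufa13, also known as GRIM-19, stood at -0.97, Ndufa2 at -0.84 and Ndufb4 at -0.77. The other 17 lower accessory genes lay between -0.58 and -0.18: Ndufb9, Ndufs4, Ndufb11, Ndufa11, Ndufc2, Ndufa7, Ndufb3, Ndufb7, Ndufs5, Ndufa1, Ndufb6, Ndufa10, Ndufa12, Ndufa3, Ndufb5, Ndufs6 and Ndufa9. Of these, Ndufa3, Ndufb5, Ndufs6 and Ndufa9 lost their call in at least 1 fit that left out a single library, and Ndufa12 stood at -0.17 without EphA4 knockout replicate 3 or control replicate 3, against -0.27 with all. Among the 17, Ndufs4 is the subunit whose loss is used as a mouse model of Leigh syndrome.

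Ndufb10, a cysteine-rich subunit of the membrane arm, went the other way. It had 86.6, 91.2 and 90.7 CPM in EphA4 knockout libraries, against 72.9, 68.4 and 71.4 CPM in control libraries (log2 fold change 0.34, SE 0.04, adjusted p = 0.00012). The groups did not overlap, and it was the 1 complex I gene called higher. Ndufb2, Ndufa8, Ndufc1, Ndufb8 and Ndufa5 were not called, with log2 fold changes of -0.32, -0.10, -0.01, 0.02 and 0.22. Ndufa5 was called higher in 10 of the 19 alternative settings, among them the fit without EphA4 knockout replicate 3 (adjusted p = 0.042, against 0.077 with it). Ndufa4 carries a complex I symbol but its protein is now placed in complex IV. It had 76.4, 75.1 and 77.3 CPM in EphA4 knockout libraries, against 77.2, 77.9 and 81.9 CPM in control libraries, and was not called (adjusted p = 0.30). Counted with complex IV, it would be the 1 tested gene of 12 there that was not lower.

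Complex II, succinate dehydrogenase, oxidises succinate in the tricarboxylic acid cycle and feeds ubiquinone, and it has no mitochondrially encoded subunit. Its membrane anchor and haem-binding gene Sdhc had 61.8, 60.1 and 53.2 CPM in EphA4 knockout libraries, against 107, 102 and 110 CPM in control libraries (log2 fold change -0.86, SE 0.06, adjusted p = 2.1e-06). Sdhb, the iron-sulfur subunit, had 72.1, 67.5 and 70.8 CPM in EphA4 knockout libraries, against 107, 104 and 113 CPM in control libraries (log2 fold change -0.62, SE 0.05, adjusted p = 3.2e-06). Both genes stood clear of their control ranges. The other membrane anchor, Sdhd, had 65.6, 59.1 and 57.8 CPM in EphA4 knockout libraries, against 77.6, 73.9 and 79.2 CPM in control libraries. Sdha, the flavoprotein that oxidises succinate, had 199.7, 199 and 208 CPM in EphA4 knockout libraries, against 241, 242 and 239 CPM in control libraries. These were smaller steps, with log2 fold changes of -0.34 for Sdhd and -0.25 for Sdha, and again with no overlap.

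Complex III passes electrons from ubiquinol to cytochrome c. Uqcrc1, a core structural subunit, had 182, 169.8 and 182 CPM in EphA4 knockout libraries, against 318, 298 and 307 CPM in control libraries (log2 fold change -0.79, SE 0.04, adjusted p = 3.5e-07). Uqcrq, a small subunit that lies against cytochrome b, had 77.3, 77.5 and 71.5 CPM in EphA4 knockout libraries, against 109.98, 115 and 121 CPM in control libraries (log2 fold change -0.61, SE 0.05, adjusted p = 5.9e-06). Both were lower in all 3 libraries. Uqcrfs1, the Rieske iron-sulfur protein, stood at -0.27 (adjusted p = 0.0051). Without EphA4 knockout replicate 3, Uqcrfs1 stood at -0.15 (adjusted p = 0.033), and its call was lost without control replicate 2 or 3 (adjusted p = 0.061 and 0.065). Uqcrc2, the partner core subunit of Uqcrc1, stood at -0.19 (adjusted p = 0.012), and without EphA4 knockout replicate 3 it stood at -0.09 and was not called (adjusted p = 0.15); its call was also lost without EphA4 knockout replicate 1 and without control replicate 2 or 3. Uqcrc1 stood at 57.8% of control and Uqcrc2 at 87.5%, a difference that was not tested. The hinge protein gene Uqcrh and the small subunits Uqcrb and Uqcr11 were not called, at 0.02, 0.03 and 0.05. Uqcr10, another small subunit, had 90.3, 87.7 and 81.8 CPM in EphA4 knockout libraries, against 77.7, 77.2 and 81.7 CPM in control libraries. Its groups met almost end to end, and the call (log2 fold change 0.13, adjusted p = 0.035) was lost without EphA4 knockout replicate 1 or 2, without control replicate 2 and under 7 of the other settings. Without EphA4 knockout replicate 3, Uqcr10 stood at 0.23 (adjusted p = 0.0013).

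Complex IV, cytochrome c oxidase, has a catalytic core of mitochondrially encoded subunits wrapped by nuclear-encoded ones. Cox7a2l is known as a supercomplex factor. It had 111, 106 and 114 CPM in EphA4 knockout libraries, against 189.6, 185 and 193 CPM in control libraries (log2 fold change -0.78, SE 0.04, adjusted p = 2.5e-07). Cox4i1, the largest nuclear-encoded subunit and the site of regulation by ATP, had 258, 235 and 246 CPM in EphA4 knockout libraries, against 417, 394 and 431 CPM in control libraries (log2 fold change -0.75, SE 0.05, adjusted p = 1.1e-06). Neither gene's groups overlapped. Cox5a and Cox5b, which bind the matrix face of the core, stood at -0.72 and -0.62, and Cox6a1 at -0.66. Cox7a2, Cox6c, Cox8a and Cox7b lay between -0.45 and -0.37, and Cox7c and Cox6b1 at -0.25 and -0.20. Cox7c lost its call without EphA4 knockout replicate 3 (log2 fold change -0.13, adjusted p = 0.10), and also without EphA4 knockout replicate 2 or control replicate 1 or 3, and its groups overlapped. Cox7b stood at -0.24 without control replicate 3, still called. Cox6b1, which caps the face that binds cytochrome c, lost its call in 4 of the 6 fits that left out a single library.

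Several complex IV subunits come as a ubiquitous form and a tissue form, and MOC2 cells held the ubiquitous forms. Cox4i2, Cox6b2, Cox7b2, Cox8b and Cox8c had 0 counts in all 6 libraries, where a count of 0 allows up to 0.0718 to 0.0854 CPM a library. The heart and muscle form Cox6a2 had 18, 10 and 8 counts in EphA4 knockout libraries, against 21, 9 and 4 counts in control libraries, and Cox7a1 had 4, 0 and 0 counts in EphA4 knockout libraries, against 3, 8 and 4 counts in control libraries. Neither passed the filter. On the TPM scale, Cox4i1 averaged 711 in EphA4 knockout and 1099.8 in control libraries, the highest level of the complex in both, and Cox7b was the lowest of those tested, at 169 and 201 TPM.

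Complex V has a catalytic head in the matrix around a rotating central stalk. All 5 genes of head and stalk were lower. Atp5a1, the alpha subunit, had 666, 654 and 669 CPM in EphA4 knockout libraries, against 987, 1011 and 1016 CPM in control libraries (log2 fold change -0.60, SE 0.03, adjusted p = 5.7e-07). Atp5b, the catalytic beta subunit, had 1074, 1031 and 1060 CPM in EphA4 knockout libraries, against 1226, 1197 and 1291 CPM in control libraries (log2 fold change -0.23, SE 0.04, adjusted p = 0.00098). Both fell, without overlap, to 66.0% of control for alpha and 85.2% for beta, which alternate in the same head. Without control replicate 3, Atp5b stood at -0.15 (adjusted p = 0.016). In the stalk, Atp5e had 43.1, 38 and 32.4 CPM in EphA4 knockout libraries, against 61.0, 57.7 and 61.7 CPM in control libraries (log2 fold change -0.67, SE 0.09, adjusted p = 0.00020), with Atp5d, the delta subunit, at -0.61 and Atp5c1, the gamma subunit and rotating shaft, at -0.30. Atp5b was the highest member on the TPM scale, averaging 1183 in EphA4 knockout and 1279 in control libraries.

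The peripheral stalk keeps the head from turning with the shaft. Of its 4 genes, Atp5h and Atp5o (OSCP, at the top of the stalk) were lower, at -0.44 and -0.39. Atp5j stood at -0.06 and Atp5f1 at 0.10, and neither was called (adjusted p = 0.50 and 0.061). Atp5f1 had 241, 247 and 249 CPM in EphA4 knockout libraries, against 223, 218 and 243 CPM in control libraries. It was called higher in 11 of the 19 alternative settings, among them the fit without EphA4 knockout replicate 3 (log2 fold change 0.15, adjusted p = 0.012). Among the small membrane subunits, Atp5l was lower at -0.44 (-0.28 without EphA4 knockout replicate 3), Atp5mpl and Atp5j2 were not called at -0.20 and -0.15, and Atp5k, the e subunit that helps ATP synthases to pair, was higher. Atp5k had 59.5, 58.8 and 56.1 CPM in EphA4 knockout libraries, against 48.5, 41.8 and 51.7 CPM in control libraries (log2 fold change 0.30, SE 0.08, adjusted p = 0.0075). Atp5s, known as coupling factor B, was the complex's largest fall, with 6.77, 7.10 and 5.66 CPM in EphA4 knockout libraries, against 15.8, 11.7 and 12.7 CPM in control libraries (log2 fold change -1.04, SE 0.16, adjusted p = 0.00031). Its groups did not overlap, and its level was the lowest of the 17 on the TPM scale.

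The rotating ring is built of subunit c, which Atp5g1, Atp5g2 and Atp5g3 all encode; the precursors differ in their import peptides. The last 150 coding bases of each gene are shown because they code for part of the shared mature subunit, and so show how counts can be assigned to each gene. They are written 5′ to 3′ from GENCODE M21 transcripts, with capitals at the 39 positions where the 3 genes are not all the same. Of these positions, 33 are the third base of a codon and 6 are not. The genes lie on chromosomes 11, 15 and 2.
Atp5g1: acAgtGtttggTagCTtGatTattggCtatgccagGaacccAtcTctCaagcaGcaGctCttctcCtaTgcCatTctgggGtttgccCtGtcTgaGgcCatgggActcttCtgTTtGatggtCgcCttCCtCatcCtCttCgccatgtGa
Atp5g2: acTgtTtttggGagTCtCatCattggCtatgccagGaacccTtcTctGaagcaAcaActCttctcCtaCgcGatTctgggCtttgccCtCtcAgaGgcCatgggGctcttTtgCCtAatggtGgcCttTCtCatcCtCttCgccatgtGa
Atp5g3: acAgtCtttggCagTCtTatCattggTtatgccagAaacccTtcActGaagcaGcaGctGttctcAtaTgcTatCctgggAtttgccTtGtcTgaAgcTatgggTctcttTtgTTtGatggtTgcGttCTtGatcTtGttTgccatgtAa
Over the last 228 coding bases, Atp5g1 and Atp5g2 were identical at 85.1% of positions, Atp5g1 and Atp5g3 at 79.8%, and Atp5g2 and Atp5g3 at 78.5%. The longest identical runs were 21, 11 and 8 bases, so the differences are spread along the sequence. No source used here states how reads of similar sequence were assigned.

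The 3 c subunit genes did not move together. Atp5g1 had 93.7, 78.1 and 88.2 CPM in EphA4 knockout libraries, against 61.5, 60.7 and 67.8 CPM in control libraries (log2 fold change 0.45, SE 0.07, adjusted p = 0.00048). Atp5g3 had 233, 223 and 230.4 CPM in EphA4 knockout libraries, against 193, 189 and 209 CPM in control libraries (log2 fold change 0.22, SE 0.04, adjusted p = 0.0020). Atp5g2 had 58.8, 63.5 and 60.1 CPM in EphA4 knockout libraries, against 81.7, 76.3 and 79.9 CPM in control libraries (log2 fold change -0.38, SE 0.05, adjusted p = 9.9e-05). No groups overlapped, and the 3 directions were kept in every one of the 19 alternative settings. Atp5g2 supplied 22.9% ± 1.5 of the summed c subunit TPM in EphA4 knockout libraries and 32.0% ± 1.2 in control libraries (SD, n = 3 each). Atp5g1 supplied 24.1% ± 1.6 and 18.9% ± 0.44, and Atp5g3 53.1% ± 0.13 and 49.1% ± 0.74. Their summed level was 1337, 1283 and 1274 TPM in EphA4 knockout libraries, against 1102, 1086 and 1148 TPM in control libraries, on a scale where the median log2 ratio of all tested genes was 0.08. Shares and sum rest on 1 transcript length per gene. The Atp5g2 transcript used had 441 bases, 438 of them coding, against 596 and 408 for Atp5g1 and 714 and 423 for Atp5g3. A longer Atp5g2 transcript would lower its share in both groups.

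**Figure D3:**
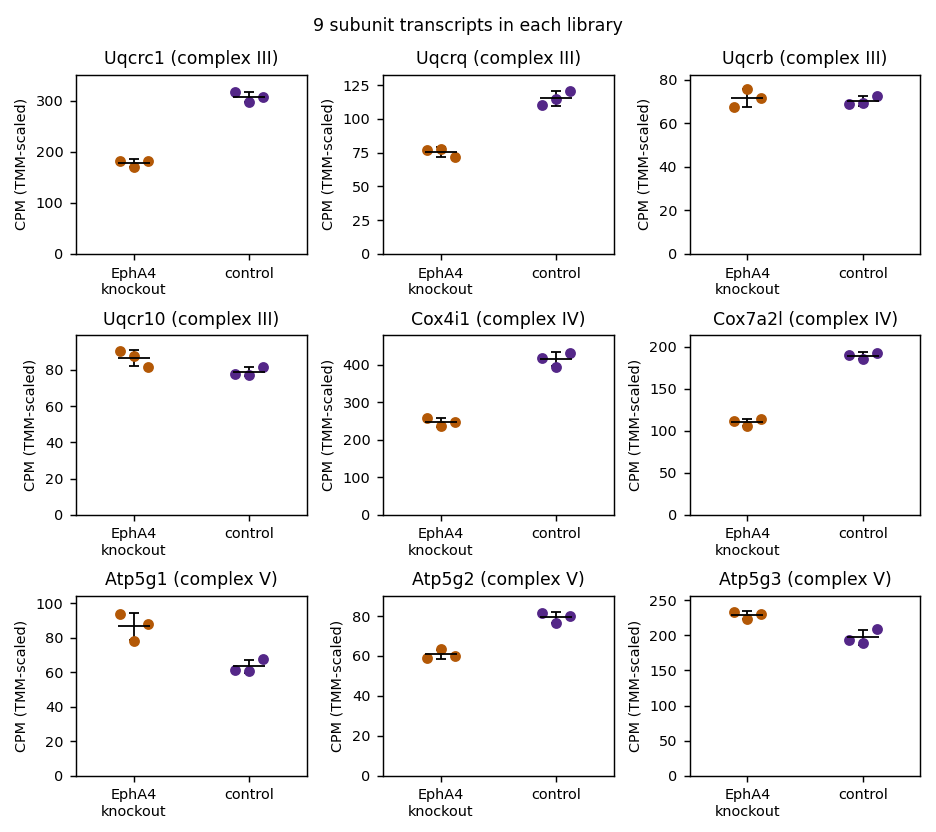
TMM-scaled CPM of 9 subunit transcripts in each library, EphA4 knockout (orange) left of control (purple), one point a library, with the mean and an error bar of 1 SD (n = 3). Uqcrc1, Uqcrq, Cox4i1, Cox7a2l and Atp5g2 lie lower in EphA4 knockout libraries, Atp5g1 and Atp5g3 lie higher, Uqcr10 is 81.8 CPM at its lowest in EphA4 knockout and 81.7 at its highest in control, and Uqcrb overlaps.

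Promoter sequences were searched for the motifs of known activators over the 250 bases before the start of each gene, on both strands. The motifs were GCGCA and GCGC separated by any single base for nuclear respiratory factor 1, CCGGAAG for ETS factors such as GABP, and AAGATGGC for YY1; the motifs did not overlap each other in any member's promoter. RefSeq promoters (GRCm38.p6) were held for 63 of 82 members. The nuclear respiratory factor 1 motif was in 13 of the 63 (20.6%), beside 9.15% of 10401 tested genes with a promoter and 4.23% of all 27025. The ETS motif was in 12 (19.0%), beside 15.5% and 7.83%, and the YY1 motif in 1 (1.59%), beside 2.42% and 1.83%. Among members called lower, 10 of 46 held the first motif and 9 the ETS motif, and among those called higher, 1 of 5 held the first and 0 the second. The shares of lower and of other members were not compared by a test, and a match in these letters is not a bound site.

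Shown are the 150 bases before the start of 2 lower genes that hold both of the first 2 motifs, then of the 3 c subunit genes, which moved in different directions, and of Atp5k, a gene that was higher. Capitals mark motif matches, and each sequence is written 5′ to 3′ on the gene's strand.
Sdhd, chr9:50603850-50603999, minus strand: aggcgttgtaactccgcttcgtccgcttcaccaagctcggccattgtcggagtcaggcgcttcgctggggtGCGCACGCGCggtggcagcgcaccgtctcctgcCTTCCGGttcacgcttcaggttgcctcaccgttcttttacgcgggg
Cox6a1, chr5:115348959-115349108, minus strand: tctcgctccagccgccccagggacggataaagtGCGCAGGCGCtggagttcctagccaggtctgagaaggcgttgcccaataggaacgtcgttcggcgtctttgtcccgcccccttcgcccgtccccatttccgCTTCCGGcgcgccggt
Atp5g1, chr11:96075632-96075781, minus strand: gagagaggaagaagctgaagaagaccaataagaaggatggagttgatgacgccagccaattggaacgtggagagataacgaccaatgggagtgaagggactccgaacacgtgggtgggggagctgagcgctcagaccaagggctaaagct
Atp5g2, chr15:102671048-102671197, minus strand: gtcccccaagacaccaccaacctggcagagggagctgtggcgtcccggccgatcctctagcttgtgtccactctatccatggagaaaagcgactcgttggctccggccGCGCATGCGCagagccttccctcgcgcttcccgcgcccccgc
Atp5g3, chr2:73911327-73911476, minus strand: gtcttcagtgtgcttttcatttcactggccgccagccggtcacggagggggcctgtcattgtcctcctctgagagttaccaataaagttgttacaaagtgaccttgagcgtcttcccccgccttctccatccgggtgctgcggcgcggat
Atp5k, chr5:108434400-108434549, minus strand: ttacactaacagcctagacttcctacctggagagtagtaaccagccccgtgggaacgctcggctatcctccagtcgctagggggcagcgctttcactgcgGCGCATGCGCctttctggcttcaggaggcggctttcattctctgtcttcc
The nuclear respiratory factor 1 motif stood before Atp5g2, which was lower, and before Atp5k, which was higher, and was not found before Atp5g1 or Atp5g3, which were higher.

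The known activators themselves were called in both directions. Of 18 tested regulators, 6 were lower, 8 higher and 4 not called, beside 38.8% lower and 32.7% higher over all tested genes. Without EphA4 knockout replicate 3, 4 were lower and 9 higher. The coactivator gene Ppargc1a, which encodes PGC-1α, had 0, 0 and 7 counts in EphA4 knockout libraries, against 322, 299 and 362 counts in control libraries (fitted log2 fold change -7.00, adjusted p = 5.9e-05). Without EphA4 knockout replicate 3, where its other libraries are at 0, the fitted value was -11.31 and is no measure of size. It was near 0 in every EphA4 knockout library. Its relative Ppargc1b stood at -3.62, and Esrra, the estrogen-related receptor that PGC-1α coactivates, had 30.6, 32.7 and 28.0 CPM in EphA4 knockout libraries, against 74.8, 63.2 and 73.5 CPM in control libraries (log2 fold change -1.21, SE 0.08, adjusted p = 1.7e-06). The third member of the PGC-1 family, Pprc1, was higher at 1.34, as were Gabpb2 (1.40), Gabpa (0.59), Nrf1 (0.44) and Tfam (0.30). Tfam encodes a packaging and transcription factor of mitochondrial DNA. Gabpb1, the other Gabpb gene listed, was lower at -0.19 (edgeR adjusted p = 0.0040). It was not called without EphA4 knockout replicate 3 (log2 fold change -0.14, adjusted p = 0.061). Exons of Gabpa overlap those of Atp5j on the opposite strand. Yy1 was lower at -0.10 and was not called without EphA4 knockout replicate 3 (log2 fold change -0.04, adjusted p = 0.48).

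Assembly factors and other partners of the subunits were called in both directions, and their shares are to be read beside 38.8% lower and 32.7% higher over all tested genes. Of 17 tested complex I assembly factors, 7 were lower and 5 higher, with a median of 0.22, and the largest were Tmem186 at 1.23, Ndufaf4 at 1.18 and Acad9 at 0.87, all higher. Of 14 assembly factors of complexes II, III and V, 4 were lower and 4 higher, with Sdhaf4 at -1.30, Fmc1 at -1.26 and Uqcc3 at 0.85. Of 23 tested complex IV assembly factors, 6 were lower and 9 higher, with Coa7 at 1.58, Higd2a at -1.01 and Cox14 at -0.92. Without EphA4 knockout replicate 3, complex I assembly factors were 6 lower and 7 higher. Those of complexes II, III and V were 4 lower and 4 higher without it, and those of complex IV 6 and 10. Coenzyme Q synthesis genes were 6 lower and 4 higher of 13, and 5 and 5 without EphA4 knockout replicate 3. The largest changes were Coq8a at -2.0, Pdss1 at 1.59 and Coq10a at -1.34. Coq8a rested on few counts, with 13, 3 and 13 in EphA4 knockout libraries, against 28, 33 and 64 in control libraries. Among 12 tested carriers and exchange partners, 3 were lower and 4 higher: Etfa and Etfb, which bring electrons from fatty acid oxidation, stood at -1.14 and -1.01, Gpd2 at 0.61, the cytochrome c gene Cycs at 0.38 and the cytochrome c1 gene Cyc1, a catalytic subunit of complex III outside the symbol rule, at -0.20. The tricarboxylic acid cycle had the highest share of lower calls among these lists: 11 of 13 were lower, 0 higher and the median was -0.40, with Fh1 (fumarate hydratase) and Sucla2, a succinyl-CoA ligase subunit, at -0.94 and -0.42; with transcript length offsets 7 were lower, 7 in a test against a fold of 1.2 and 8 without EphA4 knockout replicate 3.

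**Figure D4:**
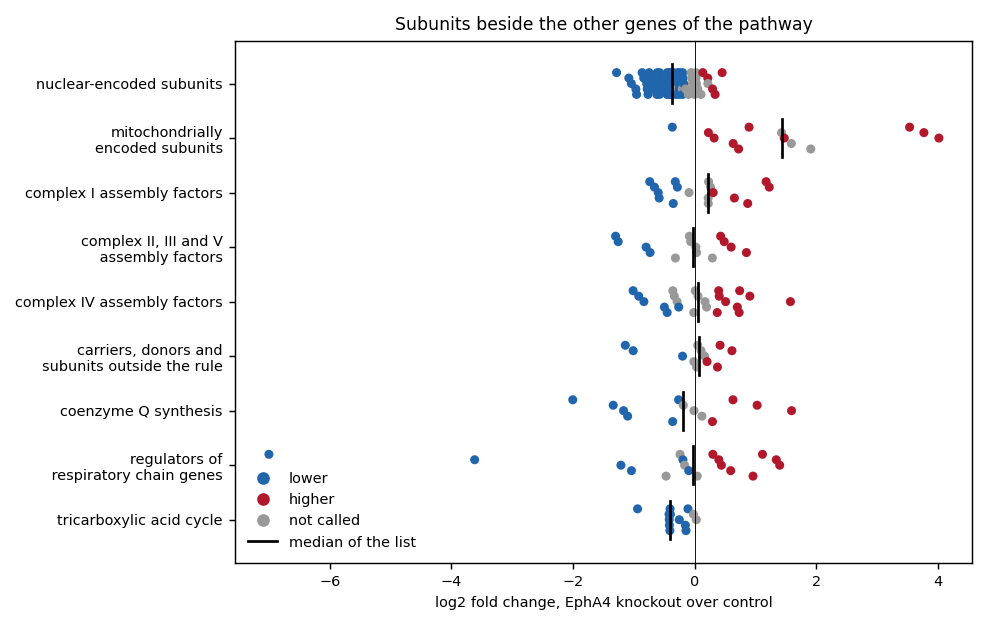
Log2 fold change, EphA4 knockout over control, of genes in each pathway list beside the subunit genes, one point a gene (blue lower, red higher, grey not called), with a black bar at each list's median. The tricarboxylic acid cycle genes lie mostly below 0, with a median of -0.40, and the assembly factors lie on both sides of 0.

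The 13 subunits encoded by mitochondrial DNA moved in both directions. With all libraries, 1 was lower, 9 were higher and 3 were not called, beside 38.8% lower and 32.7% higher over all tested genes. Several of these calls rested on EphA4 knockout replicate 3. mt-Atp6, for example, had 7.75, 8.10 and 95.4 CPM in EphA4 knockout libraries, against 9.20, 9.18 and 11.2 CPM in control libraries. Without that library, 3 were lower and 6 were higher, beside 38.2% and 33.7% of all tested genes. The lower genes were mt-Co1, mt-Co2 and mt-Co3, which encode the catalytic core of complex IV. The higher genes were mt-Nd1, mt-Nd2, mt-Nd4, mt-Nd5 and mt-Nd6 of complex I and mt-Cytb of complex III. Levels of mt-Co2 and mt-Co3 lay far below that of mt-Co1, and why was not tested. mt-Co2 had 8.39, 7.81 and 113 CPM in EphA4 knockout libraries, against 15.0, 13.1 and 15.0 CPM in control libraries. mt-Co3 had 3.92, 4.36 and 51.3 CPM in EphA4 knockout libraries, against 7.15, 6.23 and 8.71 CPM in control libraries. mt-Co1 had 6772, 6760.1 and 6524 CPM in EphA4 knockout libraries, against 8561, 8482 and 8827 CPM in control libraries (log2 fold change -0.37, SE 0.05, adjusted p = 9.5e-05). mt-Nd1 had 4085, 4175 and 3983 CPM in EphA4 knockout libraries, against 2159, 2097 and 2325 CPM in control libraries (log2 fold change 0.90, SE 0.05, adjusted p = 5.8e-07). For both genes the groups did not overlap. Mitochondrial RNA as a whole took 1.98% to 2.10% of counts in EphA4 knockout libraries and 1.78% to 1.91% in control libraries. How far polyA selection captures these transcripts was not tested.

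The 4 members Ndufa11b, Ndufb4c, Ndufs6b and Cox6c2 are annotated as processed pseudogenes with a single exon, and none passed the filter. Ndufs6b had 4, 3 and 50 counts in EphA4 knockout libraries, against 7, 2 and 8 counts in control libraries, and Cox6c2 had 2, 1 and 27 counts in EphA4 knockout libraries, against 5, 4 and 6 counts in control libraries. Ndufb4c had 4, 10 and 28 counts in EphA4 knockout libraries, against 11, 7 and 7 counts in control libraries, and Ndufa11b had 2, 0 and 8 counts in EphA4 knockout libraries, against 1, 1 and 1 count in control libraries. counts in control libraries In all 4 the high value was EphA4 knockout replicate 3. Without it, the libraries of both groups overlapped for Ndufa11b, Ndufb4c and Ndufs6b, and for Cox6c2 the other EphA4 knockout libraries lay below control. Ndufb1-ps, a complex I row left out by its symbol, was not called (log2 fold change -0.21, adjusted p = 0.085).

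**Figure D5:**
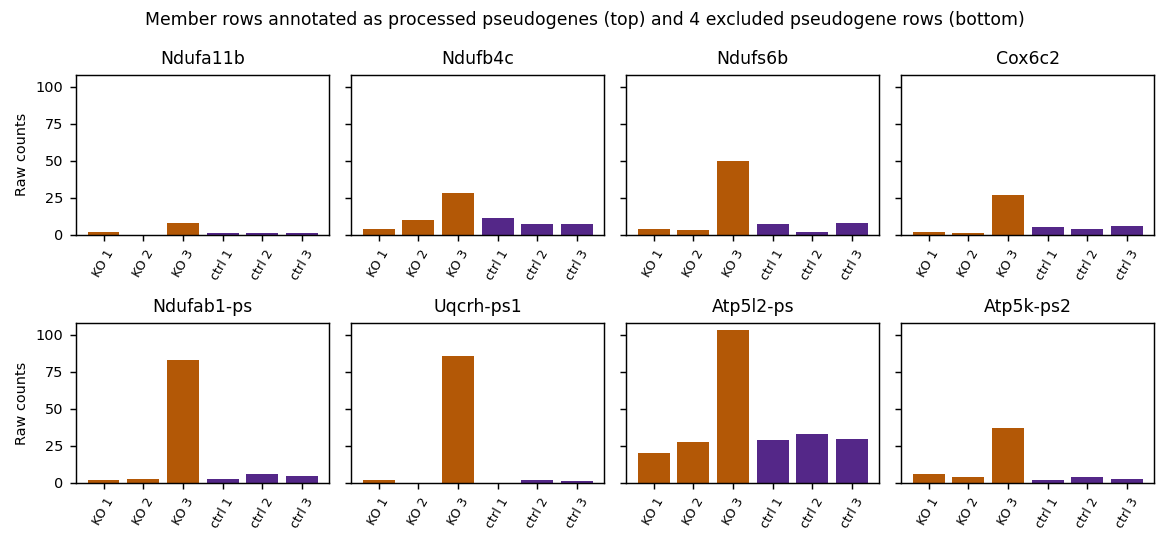
Raw counts in each library, EphA4 knockout (KO, orange) left of control (ctrl, purple), on the 4 member rows annotated as processed pseudogenes (top) and on 4 excluded pseudogene rows of the same families (bottom). EphA4 knockout replicate 3 is the highest bar in each panel, from 8 counts for Ndufa11b to 103 for Atp5l2-ps.

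Exons of 27 of the 76 tested members overlap another annotated gene, 24 of them on the opposite strand. These include Ndufa13 (with Tssk6), Ndufs1 (with Eef1b2), Cox4i1 (with Emc8), Atp5a1 (with Haus1) and Atp5d (with Cbarp). The sources used here do not say whether counting used strand, so reads from such pairs may not be told apart. Atp5o stands for 2 annotated loci.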

How the data were processed

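PolyA RNA of 6 MOC2 samples, 3 in each group, was sequenced. The authors deposited raw counts per gene symbol. STAR and the GRCm39 build are named in the submitters' processing notes without versions. No source used here names the counting tool, the annotation or the strand setting. The table's symbols matched GENCODE M21, which gave transcript lengths, gene types and overlaps.

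Genes passing edgeR's filterByExpr (15199 of 28042 with any count) were scaled by TMM and tested with the quasi-likelihood test of edgeR 4.0.16 in R 4.3.3, EphA4 knockout over control, with Benjamini-Hochberg adjustment over all tested genes and a threshold of 0.05. CPM are counts scaled by library total and TMM factor. TPM used 1 transcript length per gene and carry no test. Totals of 35115926 to 41775031 counts make 1 count worth 0.0239 to 0.0285 CPM. The fit was also run on simulated data in which far fewer genes changed than the 71.5% called here. That run therefore did not test the scaling under the conditions of these data. Alternatives were other scalings and filters, DESeq2 1.42.0, limma-voom (limma 3.58.1), a replicate block, transcript length offsets, stricter thresholds and each library left out. DESeq2's Wald test replaced the quasi-likelihood test in that setting only. The limit for a count of 0 is 3 counts and covers counting error only.

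Members and lists were chosen with earlier results of these data known. Members were accounted for by complex, direction and call; some individual gene values are not reported here. Values in every library were given for the 2 largest called changes in each direction per complex above a mean log2 CPM of 3. They were also given for the c subunit genes and for part of the complex IV isoform families. The same holds for members whose call depends on EphA4 knockout replicate 3 where they were singled out. Core subunits were given whatever their call, and up to 3 genes per other list by size of change. Some further list genes (Etfa, Cycs, Tfam, Yy1, Pprc1, Nrf1, Gabpa and others) were named for their role after their values were seen.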

Additional observations from a re-analysis of the deposited data

Results flagged for a closer look

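Pseudogene rows of the subunit families, which no comparison used, held 351 counts in EphA4 knockout replicate 3, against 37 and 40 counts in the other EphA4 knockout libraries and 41, 50 and 43 counts in control libraries. The highest were Atp5l2-ps with 103 counts, Uqcrh-ps1 with 86 and Ndufab1-ps with 83 in that library. The signal was noted because it lay above the control level in rows outside the main measurement.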

How the results depend on the processing

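Of the 56 members called lower, 39 kept direction and call in all 19 alternative settings, 17 lost the call in at least 1 and 1 of these reversed. Of the 5 called higher, 2 kept the call in all settings, Ndufb10 and Atp5g1, and of the 15 not called, 6 were called in at least 1. Epha4 stayed called higher throughout. Transcript length offsets, which also moved all tested genes to 37.0% lower and 34.6% higher, left 43 members lower and 6 higher. With the replicate block added, 41 members were lower and 6 higher, beside 35.6% and 32% of all tested genes. The cause was not tested. Ndufa9 reversed there, at 0.011 with offsets (adjusted p = 0.87), and at 0.009 with the block. Under glmTreat against a fold of 1.2, 40 members were lower and 2 higher, 2 complex II genes were lower and 1 complex V gene was higher. DESeq2 gave 56 lower and 7 higher, and no filter 59 and 4. Of all tested genes, 32.3% were lower and 24.9% higher under glmTreat, 38% and 33.9% under DESeq2, and 22.7% and 17.4% with no filter.

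The count of complex I genes higher was 2 with relative log expression factors, a filter of 5 CPM, DESeq2, the replicate block or the top 20 genes left out, and 3 with length offsets, with or without the block. Complex III genes lower numbered 2 with length offsets, with or without the block, and under glmTreat; its 1 higher gene became 0 with upper-quartile factors, no filter, the replicate block, length offsets (with and without the block), a threshold of 0.01 and glmTreat. The members' median was -0.44 with no filter, -0.25 with length offsets and -0.27 with offsets and block. Leaving out 1 library at a time gave 48 to 54 members lower and 4 to 7 higher, 1 to 2 complex I genes higher, 2 to 4 complex III genes lower, 0 to 1 higher, and a median log2 fold change of tested members of -0.371 to -0.276. In those fits, 33.7% to 38.2% of all tested genes were lower and 29.5% to 33.7% higher. Complex III had 2 lower without control replicate 2 or 3 and 0 higher without EphA4 knockout replicate 1 or 2 or control replicate 2. Same-numbered samples did not deviate together (correlations of -0.00286, 0.0291 and 0.00829), and the samples were treated as unpaired. These correlations cannot show whether same-numbered samples were prepared together. The replicate block gave 57 lower and 6 higher members, beside 37.6% and 30.4% of all tested genes.

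Members are short, with a median transcript length of 760.5 bases. The median was 2556 over all tested genes and 2858 over the 12552 tested protein-coding genes. As a description, Spearman's rho of length with log2 fold change was 0.005 across all 15199 tested genes. Across the protein-coding genes it was 0.157. With 3 libraries a group from 1 clone, clone and EphA4 edit cannot be told apart.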
